A study of Rattus norvegicus with 12 samples.

Results

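Folic acid alone was set against control in H9c2 cells, a line derived from embryonic rat heart and labelled here as cardiomyocytes, using 6 of the 12 libraries of a polyA RNA sequencing study with 4 groups. The groups were FA (folic acid alone, 3 libraries), control (labelled Ctrl, no agent named, 3 libraries), MMA+FA (labelled MMA_FA, both agents, 3 libraries) and MMA (an agent the labels give by that abbreviation, 3 libraries). No source used here gives doses, times or the folate of the medium. The members were the FA and control libraries named as such in the column headings. The MMA+FA and MMA libraries were compared with each other to set the same difference beside it in cells that also had MMA. They also entered the gene filter and the estimate of spread behind every p-value, since 1 model was fitted to all 12 libraries. The labels do not say whether the libraries came from separate cultures, so the p-values measure only the spread between these samples, which may be technical.

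Folic acid is the synthetic form of the vitamin folate. Cells take it up through carriers, receptors and a proton-coupled transporter, reduce it to tetrahydrofolate, and use the reduced forms to carry single carbon units for thymidylate, purine and methionine synthesis. H9c2 cells are used as a cardiac model, but they are proliferating myoblasts that keep skeletal muscle features and can differentiate, so contractile, matrix and growth factor genes are usual readouts in this line.

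Of 30562 genes in the table, 12263 had a mean of at least 1 TPM (transcripts scaled to a fixed total per library and corrected for length) over the 12 libraries and were tested with limma on log2(TPM + 1). Differences below are FA minus control on that scale, with the standard error (SE) and the p-value adjusted by the Benjamini-Hochberg method over all genes tested. A gene is called higher or lower where its adjusted p was under 0.05. Each difference was also computed after median-ratio scaling, which divides each library by 1 factor so that its typical gene matches the others. The factors were 1.008, 1.008 and 1.016 in the FA libraries, against 1.045, 1.04 and 1.053 in the control libraries. The median difference over all genes was -0.05 as deposited and 0 after scaling. Since TPM holds no read totals, sequencing depth is unknown.

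Most cardiomyocyte markers were at or near 0, against the labelled cell type. Of 11 in the table, 3 were tested (Tnnt2, Nkx2-5 and Gata4), and 7 lay under 1 TPM in the FA and control groups, among them Myh6 and Myh7, the cardiac myosin heavy chains, and the natriuretic peptide genes Nppa and Nppb, both listed at 0 in these 6 libraries. The 11 summed to 61.7 to 64.5 TPM in the FA libraries, against 32.2 to 38.0 TPM in the control libraries, most of it Tnnt2 in the FA libraries. Skeletal myoblast markers, among them Cdh15, Myod1, Myog and Des, summed to 205 to 263 TPM in the FA libraries, against 222 to 236 TPM in the control libraries. Of these 8 markers, 5 were tested and 3 lay under 1 TPM, among them Myf5 and Pax7, the latter listed at 0 in these 6 libraries. Fibroblast and mesenchymal markers summed to 13032 to 14852 TPM in the FA libraries, against 11289 to 12053 TPM in the control libraries. Of 14 such markers, 9 were tested, Col1a1, Col1a2 and Col3a1 among them, and 5 lay under 1 TPM, Pdgfra and Dcn among them. Krt8 was the one epithelial marker tested, while the other 8 in the table, Epcam and Cdh1 among them, lay under 1 TPM. Endothelial markers summed to 35.4 to 41.8 TPM in FA, against 36.6 to 40.6 TPM in control, and leukocyte markers to 16.2 to 17.9 TPM in FA, against 16.3 to 17.3 TPM in control. In these lists, 11 of 12 endothelial and 8 of 11 leukocyte markers lay under 1 TPM. In bulk RNA, fewer cells of a type and less RNA per cell cannot be told apart. Mitochondrially encoded genes took 9.53 ± 0.845% of TPM in FA libraries and 9.58 ± 0.27% in control libraries (SD, n = 3 each). The 100 most abundant genes took 36.6 ± 0.0922% in FA and 35.3 ± 0.295% in control, with an exact two-sided permutation p of 0.1, the smallest that 3 against 3 can give. Among them, the locus Ubb-ps1 alone took 3.62 ± 0.674% in FA and 2.83 ± 0.459% in control. Its libraries overlapped, with a p of 0.3 by the same permutation test.

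Folic acid alone went with many small differences. As deposited, 1517 genes were called (12.4% of those tested), with 450 higher (3.67%) and 1067 lower (8.7%). A fit of the 6 FA and control libraries alone called 604, with 195 higher and 409 lower. After scaling the balance turned: 1185 were called (9.66%), with 709 higher (5.78%) and 476 lower (3.88%). In both, 449 genes were higher and 476 lower, so the excess of lower calls depended on the scaling while the 476 lower genes did not. The median size of a called difference was 0.27. A difference of at least 0.5 was seen in 50 higher and 71 lower genes, and a difference of at least 1 in 5 higher and 10 lower genes. After scaling these counts were 69 higher and 55 lower, and 5 higher and 6 lower. The number called ranged from 214 without control replicate 3 to 2571 without FA replicate 2, and was 328 without FA replicate 1, 606 without FA replicate 3, 621 without control replicate 1 and 729 without control replicate 2. Calls that held in all 6 of those fits came to 62 higher and 130 lower genes. Every gene described below as holding in all 6 is one of these.

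**Figure D1:**
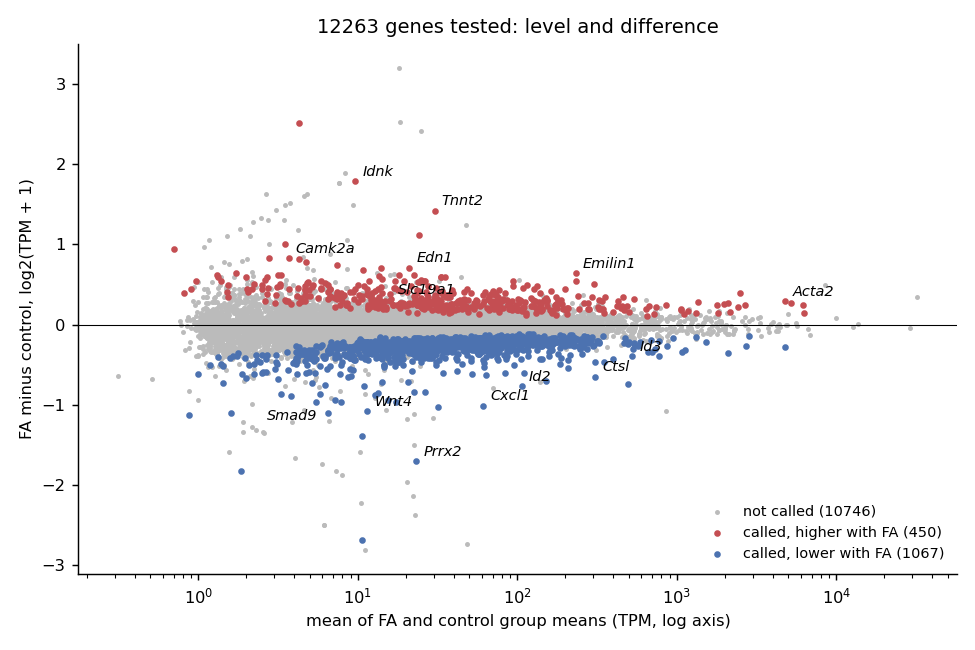
Each point is 1 of the 12263 genes tested, with the mean of the FA and control group means in TPM on a log axis and the difference FA minus control on the log2(TPM + 1) scale, and coloured points are the 450 genes called higher and the 1067 called lower. Most coloured points lie within 0.5 of zero, Tnnt2 stands at 1.42 and Prrx2 at -1.70, and the largest differences occur among genes of middling or low level.

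Among folate transport genes, 1 importer was higher and 1 exporter lower. Of 7 tested folate transport genes, 1 was higher, beside 3.67% of all genes, and 1 was lower, beside 8.7% of all genes. The median of the 7 was -0.10 as deposited and -0.05 after scaling. Slc19a1, the reduced folate carrier that brings folates into cells, had 18.3, 16.8 and 18.8 TPM in the FA libraries, against 14.04, 14.2 and 14.3 TPM in the control libraries. All 3 FA libraries lay above all 3 control libraries, as they did for 9.43% of genes, with the reverse in 24.3% and either in 33.7%. The means were 18.0 ± 1.08 TPM in FA and 14.2 ± 0.135 TPM in control (SD, n = 3 each), or 17.8 ± 1.02 and 13.6 ± 0.123 after scaling, a ratio of 1.27 as deposited. The difference was 0.32 ± 0.05 (SE, adjusted p = 0.00729), and 0.36 after scaling (adjusted p = 0.00445), and held in all 6 fits. Abcc4, an exporter that also carries folates, had 11.1, 11.7 and 12.8 TPM in the FA libraries, against 15.8, 14.5 and 17.4 TPM in the control libraries. Its libraries did not overlap either, and the difference was -0.39 ± 0.07 (adjusted p = 0.0109), with an adjusted p of 0.0554 without control replicate 3. The proton-coupled transporter gene Slc46a1 and the mitochondrial carrier gene Slc25a32 differed by -0.17 and -0.10 and did not pass the test (adjusted p = 0.187 and 0.5). Abcc1, Abcc3 and Abcc5, the other Abcc genes of the list, were tested and not called. The folate receptors Folr1 and Folr2 were at most 0.22 and 0.11 TPM in any of these 6 libraries and were not tested. In MMA+FA against MMA, limma called 0 of the 7 higher and 0 lower, with a median of 0.

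Folate enzyme genes gave 1 call in the cytosolic list and 3 in the mitochondrial list, of 10 tested in each, beside 12.4% of all genes called. Of 10 tested genes for folate retention and cytosolic one-carbon steps, limma called 0 higher (0 at an unadjusted p under 0.05) and 1 lower, with a median of -0.02 as deposited and 0.03 after scaling. The lower one was Atic, which closes the purine ring, at -0.16 (adjusted p = 0.0199). Its call was lost after scaling (adjusted p = 0.102) and without FA replicate 3, control replicate 2 or control replicate 3 (adjusted p up to 0.0906). The thymidylate synthase gene Tyms differed by 0.19 and did not pass (adjusted p = 0.166). Shmt1 (0.06), Mthfd1 (0.05) and the polyglutamate ligase gene Fpgs (-0.05) did not pass either. Of 10 tested mitochondrial genes, 1 was higher and 2 lower, and after scaling Sardh was the one left called. Sardh, the folate-linked sarcosine dehydrogenase, had 27.0, 27.7 and 30.4 TPM in the FA libraries, against 23.9, 22.9 and 23.1 TPM in the control libraries. The FA libraries were all higher, by 0.27 (adjusted p = 0.0136), with an adjusted p of 0.0645 without control replicate 3. The lower ones, the glycine cleavage genes Gcsh (-0.16) and Dld (-0.25), each had an adjusted p of 0.0412 as deposited, and 0.18 and 0.0917 after scaling. Both were also lost without FA replicate 1, FA replicate 3 or any of the control replicates, with an adjusted p of up to 0.118 for Gcsh and 0.162 for Dld.

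Methionine and cobalamin genes gave 1 lower call each, a share near the 8.7% of all genes called lower. Of 12 methionine cycle and transsulfuration genes, limma called 0 higher (1 at an unadjusted p under 0.05) and Ahcyl2 lower, by -0.40 (adjusted p = 0.0138, and 0.0599 without FA replicate 1). Ahcyl2 is a relative of the enzyme that splits S-adenosylhomocysteine. Of 11 cobalamin and propionate genes, limma called 0 higher (0 at an unadjusted p under 0.05) and the lysosomal cobalamin exporter partner Lmbrd1 lower, by -0.21 (adjusted p = 0.0458). After scaling the adjusted p of Lmbrd1 was 0.0968, and it was up to 0.17 without FA replicate 1, FA replicate 3 or any of the control replicates. Of 13 genes of deoxynucleotide supply, 1 was higher and limma called 0 lower (3 at an unadjusted p under 0.05), and of 15 purine synthesis genes, 1 was higher and 2 lower (1 and 1 after scaling), again near the shares of all genes. Tk1, the thymidine salvage kinase, had 44.4, 40.7 and 42.3 TPM in the FA libraries, against 27.0, 31.8 and 25.2 TPM in the control libraries. Tk1 was higher by 0.59 ± 0.11 (adjusted p = 0.011), with an adjusted p of 0.0564 without control replicate 3. Gmpr, which turns guanosine monophosphate back to inosine monophosphate, had 13.0, 13.3 and 13.6 TPM in the FA libraries, against 9.59, 8.72 and 10.1 TPM in the control libraries. The 3 FA libraries were above the control libraries by 0.45 (adjusted p = 0.0129), in all 6 fits. Gmps, which makes guanosine monophosphate, was lower by -0.21 (adjusted p = 0.0128, and 0.0612 without control replicate 3).

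**Figure D2:**
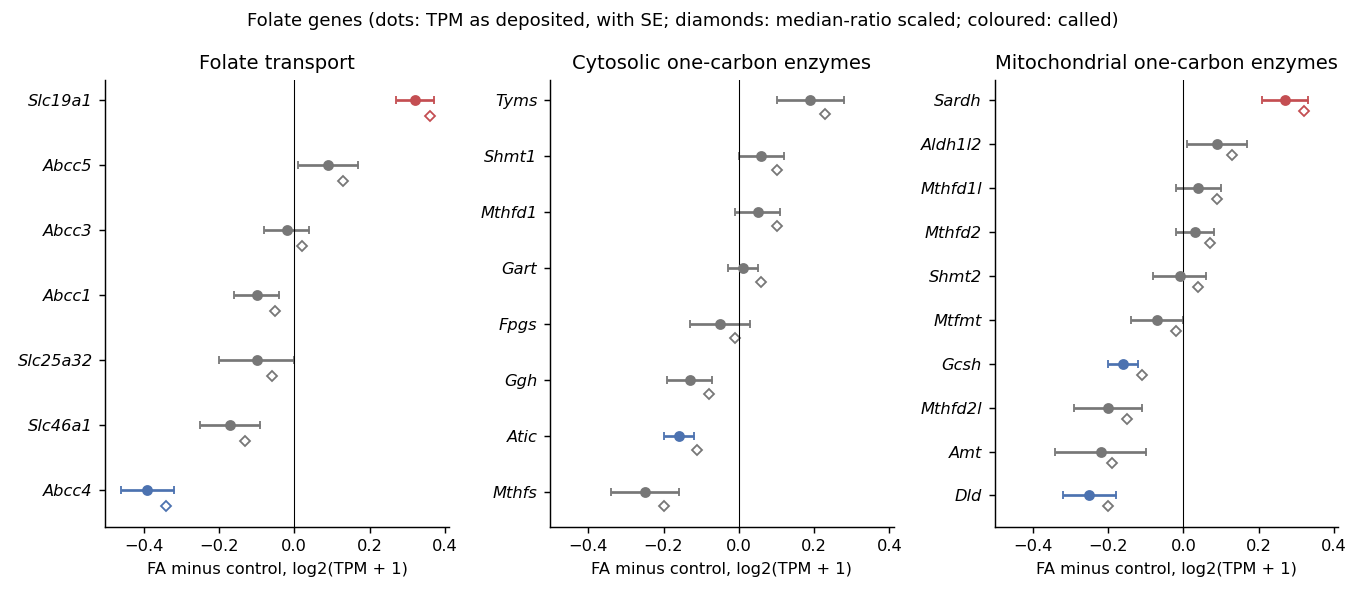
Points give the difference FA minus control on the log2(TPM + 1) scale with its SE for tested genes of folate transport, cytosolic one-carbon steps and mitochondrial one-carbon steps, with open diamonds for the scaled values and colour where that value was called. Slc19a1 and Sardh are the coloured points above zero, Abcc4 is the lowest transport gene, and the blue points of Atic, Gcsh and Dld have grey diamonds because scaling ended their calls.

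Among contractile genes, cardiac troponin T stood far above the others. The list counts from here on stand beside 3.67% of all genes called higher and 8.7% lower as deposited, and 5.78% and 3.88% after scaling. Of 6 tested troponins, 2 were higher and limma called 0 lower (0 at an unadjusted p under 0.05), with a median of 0.29 as deposited and 0.33 after scaling. Tnnt2, the cardiac troponin T that ties the troponin complex to tropomyosin, had 43.8, 47.1 and 42.4 TPM in the FA libraries, against 15.0, 18.9 and 14.5 TPM in the control libraries. The lowest FA library was above the highest control library by a wide margin. Its means were 44.5 ± 2.43 TPM in FA and 16.1 ± 2.41 TPM in control (SD, n = 3 each), or 44.0 ± 2.55 and 15.4 ± 2.39 after scaling, a ratio of 2.76 as deposited. The difference was 1.42 ± 0.10 (adjusted p = 4.81e-05), 1.46 after scaling, and held in all 6 fits. Tnnc1, the calcium-binding subunit of slow and cardiac muscle, had 434, 399 and 359 TPM in the FA libraries, against 306, 314 and 321 TPM in the control libraries. The groups did not overlap, and the difference was 0.34 ± 0.09 (adjusted p = 0.028), lost without FA replicate 1 or any of the control replicates (adjusted p up to 0.103).

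Most muscle actin, leiomodin and tropomyosin genes were higher. Of 11 tested, 7 were called higher as deposited and also after scaling, and limma called 0 lower (0 at an unadjusted p under 0.05), with a median of 0.17 as deposited and 0.22 after scaling. Acta2, the smooth muscle alpha-actin, had 5383, 4971 and 5426 TPM in the FA libraries, against 4333, 4280 and 4291 TPM in the control libraries. The control libraries were close to each other and all below the FA libraries, and the difference was 0.29 ± 0.06 (adjusted p = 0.012, 0.34 after scaling), with an adjusted p of up to 0.056 without FA replicate 1 or control replicate 3. Acta1, the skeletal alpha-actin, had 6.37, 6.01 and 5.18 TPM in the FA libraries, against 3.75, 3.87 and 3.69 TPM in the control libraries. Its difference was 0.52 ± 0.11 (adjusted p = 0.0146), with an adjusted p of up to 0.0648 without the same libraries. The actin genes are near-identical in coding sequence, so reads shared among them make the low level of Acta1 beside the high level of Acta2 uncertain. Lmod3, which starts actin filaments in skeletal muscle, had 25.8, 22.8 and 21.0 TPM in the FA libraries, against 15.6, 14.8 and 16.3 TPM in the control libraries. The difference was 0.54 (adjusted p = 0.0194), lost without FA replicate 1 or any of the control replicates (adjusted p up to 0.0766). The tropomyosins Tpm1 (0.17), Tpm2 (0.13) and Tpm3 (0.19) and the smooth muscle leiomodin Lmod1 (0.18) were also called (adjusted p = 0.0128 to 0.0401). Each lost its call without FA replicate 1, Tpm3 also without control replicate 1 or control replicate 3, and Tpm2 and Lmod1 also without FA replicate 3 or any of the control replicates (adjusted p up to 0.128).

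The promoters of the contractile genes called higher are shown because most of the list was called in the same direction. The M-CAT box, CATTCC on either strand, is the sequence bound by TEAD factors in many muscle promoters. Of 11 such genes called higher, 9 had RefSeq promoter windows (250 bases before a start, build GRCr8), 13 windows in all. The box was found in 4 of the 13, while 12.1% of 33469 windows of that length held it. The genes were Tnnt2, in 1 of its 2 windows, and Acta1, Acta2 and Tpm1. The box begins at -83 in Tnnt2 (chr13:49818873-49819122, plus strand), at -67 in Acta1 (chr19:68784195-68784444, minus strand) and at -196 in Acta2 (chr1:241172504-241172753, minus strand). These are letters in a window, and nothing about TEAD binding was measured. Capitals mark the box, written as GGAATG where it lies on the other strand.
Tnnt2: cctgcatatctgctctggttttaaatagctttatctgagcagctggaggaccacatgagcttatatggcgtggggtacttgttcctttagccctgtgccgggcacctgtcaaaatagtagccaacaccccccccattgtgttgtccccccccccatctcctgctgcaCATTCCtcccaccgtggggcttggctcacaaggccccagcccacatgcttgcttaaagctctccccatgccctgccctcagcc
Acta1: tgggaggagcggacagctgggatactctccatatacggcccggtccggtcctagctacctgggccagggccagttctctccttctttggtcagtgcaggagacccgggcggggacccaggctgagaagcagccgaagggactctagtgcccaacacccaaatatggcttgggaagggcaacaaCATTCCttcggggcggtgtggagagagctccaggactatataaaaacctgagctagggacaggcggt
Acta2: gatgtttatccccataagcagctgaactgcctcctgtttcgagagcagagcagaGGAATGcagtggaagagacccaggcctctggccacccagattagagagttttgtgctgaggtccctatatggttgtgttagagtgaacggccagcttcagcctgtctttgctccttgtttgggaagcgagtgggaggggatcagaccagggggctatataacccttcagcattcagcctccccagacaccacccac

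Other muscle lists, which share some genes with those above, changed less uniformly. Of 17 smooth muscle contractile genes, 7 were higher and limma called 0 lower (0 at an unadjusted p under 0.05), with a median of 0.13 as deposited and 0.18 after scaling, and none of the 7 calls held in all 6 fits. Acta2, Lmod1, Tpm1 and Tpm2 are also in the actin, leiomodin and tropomyosin list, so their calls are counted in both lists. Of 15 genes of the sarcomeric myosin list in the table, only 2 were tested, and the rest lay under the minimum mean of 1 TPM. Both tested ones were higher: Myl4, the atrial and embryonic light chain, by 0.49 (adjusted p = 0.0135, up to 0.0693 without FA replicate 1 or control replicate 3), and Myh2 by 0.43 (adjusted p = 0.0217). The symbol Myh2 stands for several loci in the table and its call was lost without FA replicate 1, FA replicate 3, control replicate 1 or control replicate 3 (adjusted p up to 0.0987). The myogenic regulators moved apart. Myog, which drives terminal muscle differentiation, had 20.1, 21.9 and 22.2 TPM in the FA libraries, against 17.9, 15.6 and 13.8 TPM in the control libraries. Myod1, which commits cells to the muscle lineage, had 58.6, 45.7 and 61.2 TPM in the FA libraries, against 74.2, 74.1 and 69.7 TPM in the control libraries. Myog was higher by 0.42 (adjusted p = 0.012, and 0.0554 without control replicate 3), and Myod1 lower by -0.40 (adjusted p = 0.0227), a call lost without FA replicate 1 or any of the control replicates (adjusted p up to 0.0698).

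Of 22 calcium-handling genes, 3 were higher (5 after scaling) and limma called 0 lower (2 at an unadjusted p under 0.05), with a median of 0.05 as deposited and 0.09 after scaling. Camk2a, a calcium and calmodulin-dependent kinase subunit best known in neurons, had 5.13, 4.80 and 5 TPM in the FA libraries, against 2.31, 2.70 and 2.10 TPM in the control libraries. That was a ratio of 2.10 and a difference of 0.83 ± 0.14 (adjusted p = 0.00765), in all 6 fits. Casq2, the cardiac calcium store protein calsequestrin, had 458, 458 and 450 TPM in the FA libraries, against 388, 394 and 381 TPM in the control libraries. Its difference was smaller, 0.23 (adjusted p = 0.00619), and also held in all 6 fits. The junction protein gene Jph2 was higher by 0.26 (adjusted p = 0.0333), lost without FA replicate 1, FA replicate 3, control replicate 2 or control replicate 3 (adjusted p up to 0.135).

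**Figure D3:**
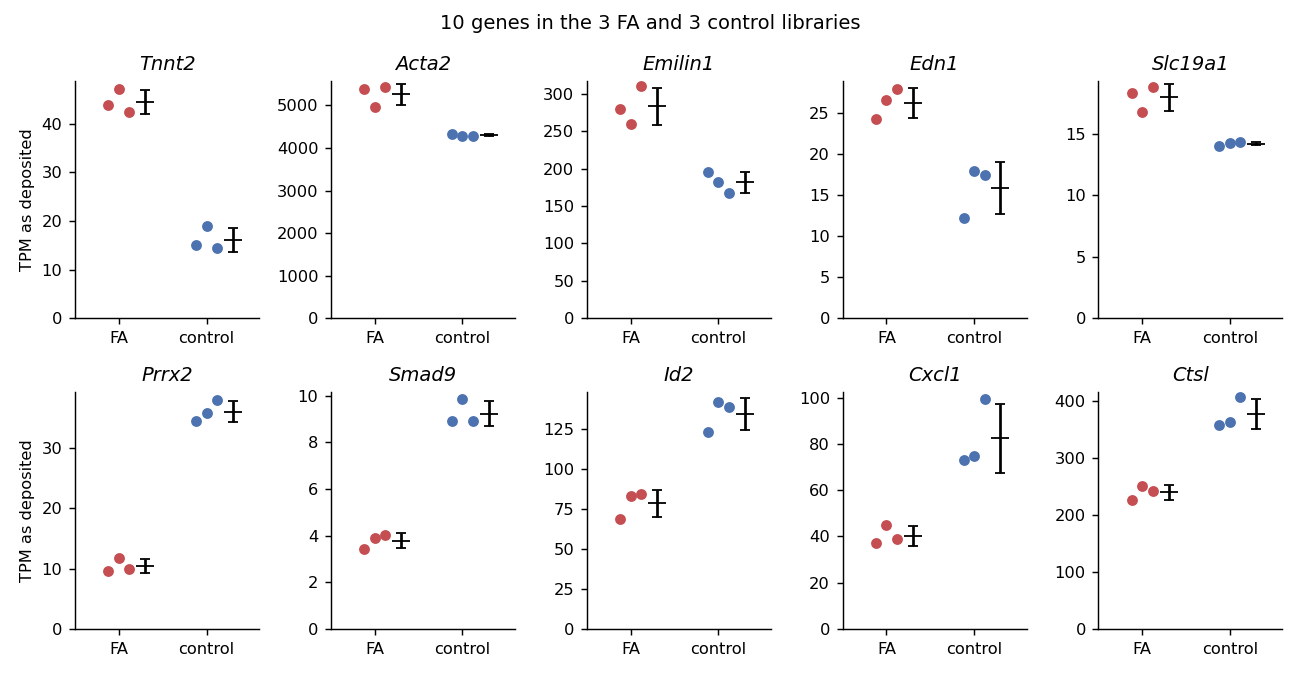
TPM as deposited is plotted for 10 genes on axes that start at 0, with a point for each of the 3 FA and 3 control libraries and a bar for the mean ± SD of each group. In all 10 panels the FA and control points do not overlap: Tnnt2, Acta2, Emilin1, Edn1 and Slc19a1 lie higher with FA, and Prrx2, Smad9, Id2, Cxcl1 and Ctsl lie lower.

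Collagens and elastic fibre genes were higher where they were called at all. Of 18 collagens tested, 6 were higher and limma called 0 lower (0 at an unadjusted p under 0.05), with a median of 0.20 as deposited and 0.24 after scaling. Col1a1, the main chain of type I collagen, had 2903, 2478 and 3051 TPM in the FA libraries, against 2256, 2141 and 2003 TPM in the control libraries. Col5a1, which seeds collagen fibrils, had 292, 234 and 306 TPM in the FA libraries, against 202, 192 and 175 TPM in the control libraries. FA replicate 2 was the lowest FA library for both and still lay above the control libraries. The differences were 0.39 for Col1a1 (adjusted p = 0.0176) and 0.54 for Col5a1 (adjusted p = 0.0126). Both calls were lost without FA replicate 1 or control replicate 3, and that of Col1a1 also without FA replicate 3 (adjusted p up to 0.0818 for Col1a1 and 0.0645 for Col5a1). None of the 6 collagen calls held in all 6 fits.

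Of 16 elastic fibre and microfibril genes, 4 were higher (5 after scaling) and limma called 0 lower (0 at an unadjusted p under 0.05), with a median of 0.11 as deposited and 0.15 after scaling. Emilin1, a glycoprotein at the surface of elastic fibres, had 280, 260 and 310 TPM in the FA libraries, against 195, 182 and 168 TPM in the control libraries. The groups stood apart, and the difference of 0.64 ± 0.09 (adjusted p = 0.00423, 0.69 after scaling) held in all 6 fits. Its relative Emilin2 (0.37, adjusted p = 0.011) lost its call without control replicate 3 (adjusted p = 0.0564). The crosslinking enzyme genes Loxl1 (0.45, adjusted p = 0.0142) and Lox (0.28, adjusted p = 0.028) were lost without FA replicate 1 or control replicate 3, and Lox also without FA replicate 3, control replicate 1 or control replicate 2 (adjusted p up to 0.0678 for Loxl1 and 0.101 for Lox).

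In the other matrix glycoproteins and proteoglycans, 5 of 23 were higher and 1 lower as deposited, and 9 higher and 1 lower after scaling. Ccn1, a secreted matricellular protein, had 592, 576 and 622 TPM in the FA libraries, against 456, 485 and 487 TPM in the control libraries, a difference of 0.32 (adjusted p = 0.00423) in all 6 fits. Spp1, osteopontin, was the lower one, with 267, 307 and 306 TPM in the FA libraries, against 426, 356 and 431 TPM in the control libraries. Its difference was -0.46 (adjusted p = 0.00734) and held in all 6 fits. Of the fibroblast and mesenchymal markers, 4 of 9 tested were higher and limma called 0 lower (0 at an unadjusted p under 0.05). Col1a1, Col1a2 and Col3a1 are in both this list and the collagen list, so any call of theirs is counted in both. The part of cell makeup in the matrix differences was not tested.

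Edn1, which encodes the vasoconstrictor peptide endothelin 1, was higher with folic acid alone. It had 24.2, 26.5 and 27.9 TPM in the FA libraries, against 12.2, 17.9 and 17.4 TPM in the control libraries. Control replicate 1 was the lowest, and no control library reached the FA libraries. The difference was 0.71 ± 0.13 (adjusted p = 0.00954, 0.75 after scaling) and held in all 6 fits. Of 5 tested genes of the endothelin system, 3 were higher and limma called 0 lower (0 at an unadjusted p under 0.05). The receptor gene Ednra (0.25, adjusted p = 0.0328) and the converting enzyme gene Ece2 (0.22, adjusted p = 0.0408) were the other two. Ednra was lost without FA replicate 1, FA replicate 2 or any of the control replicates (adjusted p up to 0.0981), and Ece2 without any 1 of the 6 libraries (adjusted p up to 0.11).

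Several BMP Smads and their targets were lower. In this pathway BMP ligands bind receptors that phosphorylate Smad1, Smad5 and Smad9, which with Smad4 switch on targets such as the Id genes and the inhibitory Smad6 and Smad7. Of 14 such genes tested, limma called 0 higher (0 at an unadjusted p under 0.05) and 7 lower, and 6 lower after scaling, with a median of -0.21 as deposited and -0.16 after scaling. Smad9 had 3.43, 3.90 and 4.03 TPM in the FA libraries, against 8.91, 9.85 and 8.93 TPM in the control libraries. The means were 3.79 ± 0.316 TPM in FA and 9.23 ± 0.537 TPM in control (SD, n = 3 each), or 3.75 ± 0.301 and 8.83 ± 0.557 after scaling, a ratio of 0.41 as deposited. The difference was -1.10 ± 0.11 (adjusted p = 0.000554, -1.05 after scaling) and held in all 6 fits. Smad1 (-0.02), Smad5 (-0.01) and Smad4 (-0.05) did not pass, and after scaling stood at 0.02, 0.03 and 0.

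The Id genes encode inhibitors of basic helix-loop-helix factors such as MyoD. Id2 had 68.8, 82.8 and 84.0 TPM in the FA libraries, against 123, 141 and 138 TPM in the control libraries, a difference of -0.77 ± 0.10 (adjusted p = 0.00262). Id3 had 458, 434 and 462 TPM in the FA libraries, against 575, 610 and 595 TPM in the control libraries, a difference of -0.39 ± 0.05 (adjusted p = 0.00262). Id4 had 5.41, 5.11 and 5.36 TPM in the FA libraries, against 8.01, 8.02 and 8.06 TPM in the control libraries, a difference of -0.52 (adjusted p = 0.00554). These 3 genes held in all 6 fits, with FA libraries below the control libraries throughout. Id1 (-0.26, adjusted p = 0.0235), Smad7 (-0.34, adjusted p = 0.0198) and Smad6 (-0.37, adjusted p = 0.0491) were lost without FA replicate 1 or any of the control replicates, and Smad6 also without FA replicate 2 (adjusted p up to 0.147). The scaled adjusted p of Smad6 was 0.0803. The core of the BMP response element, GGCGCC, which reads alike on both strands, was found in 2 of the 6 lower genes with a window, Smad9 and Smad7, and in 8.69% of all windows. In Smad9, shown because its difference was the largest of the list, the letters in capitals begin at -15 (chr2:141106418-141106667, plus strand, GRCr8), as a description only.
Smad9: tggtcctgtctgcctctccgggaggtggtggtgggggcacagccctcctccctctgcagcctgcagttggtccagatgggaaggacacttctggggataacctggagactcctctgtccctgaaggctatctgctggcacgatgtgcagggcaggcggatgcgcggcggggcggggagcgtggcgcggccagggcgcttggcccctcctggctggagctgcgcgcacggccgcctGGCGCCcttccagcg

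Ligands and inhibitors of the same pathway went both ways, with 3 higher and 3 lower of 14, and 4 higher and 1 lower after scaling. Bmp4, a ligand, had 75.6, 80.6 and 93.7 TPM in the FA libraries, against 60.2, 64.9 and 66.6 TPM in the control libraries, a difference of 0.37 (adjusted p = 0.012). Fstl1, a secreted follistatin-like protein, was higher by 0.23 (adjusted p = 0.011). Both calls held in all 6 fits. Of the 3 lower calls, 1 held in all 6 fits. The other two, Bambi (-0.28) and the receptor gene Bmpr2 (-0.19), had adjusted p values of 0.0567 and 0.0602 after scaling, and both were lost without FA replicate 1, FA replicate 3, control replicate 2 or control replicate 3, and Bmpr2 also without control replicate 1 (adjusted p up to 0.119). Beyond BMP, the Wnt ligand gene Wnt4 had 6.66, 6.42 and 7.90 TPM in the FA libraries, against 16.3, 17.1 and 14.1 TPM in the control libraries. Wnt4 was lower by -1.08 ± 0.10 (adjusted p = 0.000223) in all 6 fits. It was 1 of 2 lower genes among 21 Wnt ligands, receptors and inhibitors, a share near the 8.7% of all genes called lower. Rspo1, a secreted enhancer of Wnt signalling, was the 1 higher gene of the 21, beside 3.67% of all genes. Its difference was 0.35 (adjusted p = 0.0109), also in all 6 fits.

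The homeobox gene Prrx2, a factor of limb and craniofacial mesenchyme, had the smallest p of all genes tested. It had 9.65, 11.7 and 9.85 TPM in the FA libraries, against 34.4, 35.7 and 37.9 TPM in the control libraries. The means were 10.4 ± 1.15 TPM in FA and 36.0 ± 1.74 TPM in control (SD, n = 3 each), or 10.3 ± 1.16 and 34.4 ± 1.52 after scaling, a ratio of 0.289 as deposited. The difference was -1.70 ± 0.08 (adjusted p = 5.17e-07, -1.65 after scaling). Its close relative Prrx1 differed by -0.13 and did not pass (adjusted p = 0.224). Of 19 mesenchymal transcription factors, 3 were higher (4 after scaling) and 3 lower (2 after scaling), with a median of -0.05 (-0.02 after scaling). Foxf2, a forkhead factor, had 47.4, 46.5 and 60.7 TPM in the FA libraries, against 74.4, 71.2 and 69.9 TPM in the control libraries, a difference of -0.48 (adjusted p = 0.00954). Osr1, a zinc finger factor of mesenchymal progenitors, had 289, 263 and 306 TPM in the FA libraries, against 227, 236 and 246 TPM in the control libraries, a difference of 0.27 (adjusted p = 0.011). Prrx2, Foxf2 and Osr1 held in all 6 fits.

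Cxcl1, Ccl2 and Csf1 were lower among the inflammatory genes. Of 13 chemokines and cytokines, limma called 0 higher (0 at an unadjusted p under 0.05) and 3 lower, with a median of -0.14 as deposited and -0.09 after scaling. Cxcl1, a neutrophil attractant, had 37.0, 45.0 and 38.7 TPM in the FA libraries, against 72.9, 74.7 and 99.4 TPM in the control libraries. Ccl2, a monocyte attractant, had 3.83, 6.15 and 3.98 TPM in the FA libraries, against 8.59, 9.20 and 11.4 TPM in the control libraries. Csf1, the macrophage growth factor, had 137, 127 and 148 TPM in the FA libraries, against 176, 181 and 183 TPM in the control libraries. The differences were -1.01 ± 0.16 for Cxcl1 (adjusted p = 0.00561), -0.94 ± 0.16 for Ccl2 (adjusted p = 0.00765) and -0.39 ± 0.05 for Csf1 (adjusted p = 0.00262), and all 3 held in all 6 fits. Il6 (-0.09) and Cxcl12 (-0.12) did not pass.

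Among 20 NF-kB factors and feedback genes, 2 were higher and 5 lower, and 2 higher and 3 lower after scaling. Over all genes, 3.67% were higher and 8.7% lower, and 5.78% and 3.88% after scaling. Nfkbia, the inhibitor that NF-kB itself induces, had 23.4, 22.4 and 24.99 TPM in the FA libraries, against 29.3, 30.4 and 31.8 TPM in the control libraries, a difference of -0.36 (adjusted p = 0.00425). Ptgs2, the inducible cyclooxygenase, had 68.4, 78.7 and 67.5 TPM in the FA libraries, against 47.4, 55.9 and 57.4 TPM in the control libraries, a difference of 0.41 (adjusted p = 0.00954). The 2 genes went opposite ways, each in all 6 fits. Of 15 interferon response genes, limma called 0 higher (1 at an unadjusted p under 0.05) and 4 lower (3 after scaling), beside 8.7% of all genes lower (3.88% after scaling).

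Some NRF2 targets, the ferritin heavy chain gene among them, were lower by small steps. Of 27 NRF2 targets, limma called 0 higher (0 at an unadjusted p under 0.05) and 10 lower, and 6 lower after scaling, with a median of -0.16 as deposited and -0.11 after scaling. Nqo1, a quinone reductase, had 151, 163 and 172 TPM in the FA libraries, against 219, 196 and 232 TPM in the control libraries. Fth1, the ferritin heavy chain that stores iron, had 2299, 2544 and 2523 TPM in the FA libraries, against 3127, 2842 and 2889 TPM in the control libraries. Both sets of libraries stood apart, with differences of -0.41 for Nqo1 (adjusted p = 0.00765) and -0.27 for Fth1 (adjusted p = 0.0106), and these 2 of the 10 held in all 6 fits. Of 30 lysosome and autophagy genes, limma called 0 higher (1 at an unadjusted p under 0.05) and 6 lower, and 1 higher and 3 lower after scaling. Over all genes, 8.7% were lower as deposited and 3.88% after scaling. Ctsl, the lysosomal protease cathepsin L, had 226, 251 and 242 TPM in the FA libraries, against 359, 364 and 408 TPM in the control libraries. Its difference of -0.65 ± 0.06 (adjusted p = 0.000125, -0.60 after scaling) was the largest of that list and held in all 6 fits.

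In metabolism, 4 of 18 glycolysis genes were higher and 1 lower, beside 3.67% and 8.7% of all genes. Pfkm, the muscle phosphofructokinase, had 106, 107 and 112 TPM in the FA libraries, against 83.2, 78.9 and 70.3 TPM in the control libraries, a difference of 0.48 (adjusted p = 0.00323). Ldhb, the heart-type lactate dehydrogenase subunit, had 265, 269 and 279 TPM in the FA libraries, against 222, 212 and 198 TPM in the control libraries, a difference of 0.36 (adjusted p = 0.008). Both held in all 6 fits. Among the 25 genes of cholesterol synthesis and uptake, 4 were called higher and 1 was called lower as deposited, and none of these 5 calls held in all 6 fits. With scaling, 5 were higher and 1 lower. Of 44 nuclear oxidative phosphorylation genes, limma called 0 higher (4 at an unadjusted p under 0.05) and 7 lower, but 3 higher and 2 lower after scaling, so its direction rested on the scaling. Of 37 G2/M genes, limma called 0 higher (0 at an unadjusted p under 0.05) and 6 lower, and 1 lower after scaling. The shares of all genes called lower were 8.7% as deposited and 3.88% after scaling.

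**Figure D4:**
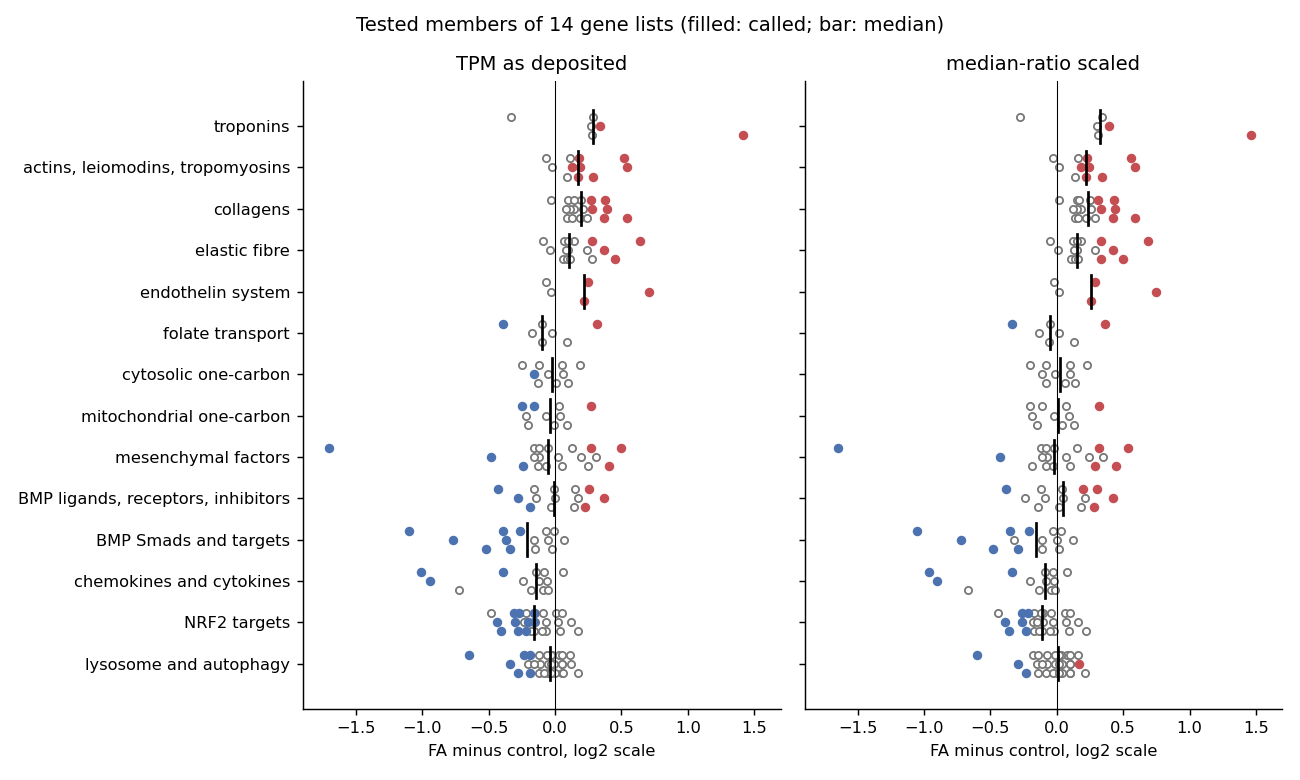
Each point is a tested member of 1 of 14 gene lists, placed by its difference FA minus control on the log2 scale, as deposited on the left and after median-ratio scaling on the right, with filled points for called genes and a bar at each list's median. Filled points of the contractile, collagen, elastic fibre and endothelin lists lie to the right of zero in both panels, those of the BMP Smads, chemokines and NRF2 targets lie to the left, and scaling moves each list slightly to the right.

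Among the 20 largest higher and 20 largest lower genes with a symbol, at least 5 TPM and libraries that did not overlap, some belong to none of these groups. Krt8, a keratin of simple epithelia, had 31.9, 29.9 and 32.99 TPM in the FA libraries, against 21.9, 21.9 and 19.8 TPM in the control libraries, a difference of 0.55 (adjusted p = 0.00323) in all 6 fits. Idnk, a gluconokinase gene, gave the largest higher value, with 15.6, 17.4 and 13.4 TPM in the FA libraries, against 3.36, 4.42 and 3.49 TPM in the control libraries. Those groups were far apart, and its adjusted p was 0.0307 in the fit of all 12 libraries, whose shared estimate of spread includes the MMA+FA libraries at 4.44, 4.21 and 21.8 TPM and the MMA libraries at 11.4, 27.7 and 11.3 TPM. With the FA and control libraries fitted alone its adjusted p was 0.00168, and without FA replicate 1, FA replicate 3 or any of the control replicates it was up to 0.105. LOC120102747, annotated as the small nucleolar RNA U89, gave the largest lower value, at -2.68 ± 0.77 (adjusted p = 0.042). It was listed at 0 in FA replicate 1, with 3.95 and 3.19 TPM in the other FA libraries, against 7.24, 25.8 and 23.6 TPM in the control libraries. Its call was lost after scaling (adjusted p = 0.0534) and without FA replicate 1, FA replicate 3 or any of the control replicates (adjusted p up to 0.149). Of the 20 higher genes, 11 held in all 6 fits, and of the 20 lower genes, 17 did.

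The folic acid difference was then set beside that in cells with MMA, MMA+FA minus MMA, which shares no library with FA against control. Both tests use the same estimate of spread for each gene, so the 2 sets of calls are not independent. There 1683 genes were called (13.7%), with 514 higher (4.19%) and 1169 lower (9.53%). Of the 450 genes higher with FA alone, 329 had the same sign (73.1%, beside 38.4% of all genes tested), and 118 were called higher in both, which is 26.2% of the 450 and 23.0% of the 514. Of the 1067 lower, 906 had the same sign (84.9%, beside 61.6% of all genes), and 300 were called lower in both, which is 28.1% of the 1067 and 25.7% of the 1169. After scaling, 218 of 709 were called higher in both (30.7% of the 709 and 27.8% of those higher with MMA), and 136 of 476 were called lower in both (28.6% of the 476 and 17.9% of those lower with MMA). The same sign was then seen in 81.9% of the higher and 81.1% of the lower genes, beside 50.3% and 49.7% of all genes. Calls in opposite directions came to 14 of the 450 and 20 of the 1067. The difference between the differences, tested as an interaction, was called in 295 genes (2.41%), among them 51 of the 450 and 57 of the 1067. That test uses the same FA and control libraries that chose these genes, so the share is a description.

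Tnnt2 and Prrx2 differed in the same direction with MMA. Tnnt2 had 84.6, 67.5 and 68.7 TPM in the MMA+FA libraries, against 22.7, 19.7 and 21.9 TPM in the MMA libraries. Prrx2 had 5.04, 5.39 and 5.98 TPM in the MMA+FA libraries, against 22.7, 22.9 and 20.5 TPM in the MMA libraries. The differences of 1.73 for Tnnt2 and -1.83 for Prrx2 lay near those without MMA, with interactions of 0.31 (adjusted p = 0.288) and -0.13 (adjusted p = 0.588) that did not pass. All 20 of the largest lower genes kept their sign with MMA, 16 of them called, and limma called 0 interactions among them (5 at an unadjusted p under 0.05). Of the 20 largest higher genes, 16 kept their sign, 7 of them called, and 3 had a called interaction, namely Palmd, Tk1 and Rpl15l3 (14 of the 20 at an unadjusted p under 0.05).

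Palmd, palmdelphin, went the other way with MMA. Its libraries had 18.2, 16.2 and 17.3 TPM in FA, against 10.3, 11.8 and 11.8 TPM in control, a difference of 0.57 (adjusted p = 0.0027). With MMA they had 13.3, 11.2 and 11.6 TPM in MMA+FA, against 17.5, 16.8 and 17.2 TPM in MMA, a difference of -0.49 (adjusted p = 0.0012). The interaction was -1.05 ± 0.10 (adjusted p = 0.00332). Acta1 showed a larger folic acid difference with MMA, at 1.34, and an interaction of 0.82 ± 0.15 (adjusted p = 0.0205). Edn1 differed by 0.08 with MMA, where MMA+FA had 30.1, 37.6 and 34.8 TPM and MMA had 28.8, 32.5 and 35.4 TPM, but the interaction of -0.63 did not pass (adjusted p = 0.0947). Among the BMP Smads and targets, 9 of 14 were lower with MMA (median -0.34), and Id3 differed by -0.66 there. Of the 18 collagens, 2 were lower with MMA (median -0.03), and 2 had a called interaction. Of the gene lists used, G2/M held the most called interactions, 19 of 37, and all 37 were lower with MMA (median -0.51). Of the 30 lysosome and autophagy genes, 10 were higher and 1 lower with MMA, and 7 had a called interaction.

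**Figure D5:**
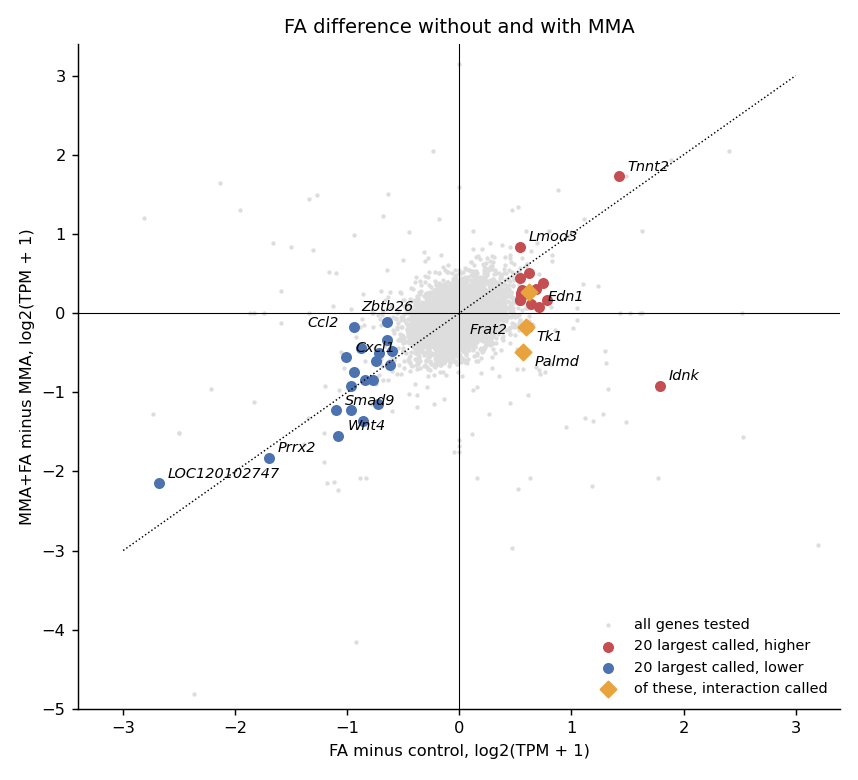
Each grey point is a gene tested, with FA minus control on the horizontal axis and MMA+FA minus MMA on the vertical axis, both on the log2(TPM + 1) scale, and coloured points are the 20 largest called genes in each direction, with diamonds where the interaction was called and a dotted line of equality. Tnnt2 (1.42 and 1.73) and Prrx2 (-1.70 and -1.83) lie near the line, Palmd (0.57 and -0.49) lies below the horizontal axis, and Idnk (1.79 and -0.92) lies far from the line without a called interaction.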

How the data were processed

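PolyA RNA from H9c2 cells was sequenced with a stranded mRNA kit, per the labels' protocols, and the submitters' processing notes name fastp, HISAT2 and the rat build mRatBN7.2. The authors deposited TPM values for 12 libraries, scaled to a fixed total per library and corrected for length, in a file whose title also names RSEM. Versions, settings and read totals were not given in the sources used here. Samples were grouped by their treatment labels.

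Genes with a mean TPM of at least 1 over 12 libraries were transformed as log2(TPM + 1), so differences of genes near 1 TPM are understated, and fitted with limma 3.58.1 (R 4.3.3, with the data.table package, version 1.17.8) with a mean-variance trend. All 12 libraries entered (4 group means, 8 residual and 4.317 prior degrees of freedom), and p-values were adjusted by the Benjamini-Hochberg method over 12263 genes. The same fit was repeated after median-ratio scaling and under the alternatives of the closing section. The code was tested on simulated data. Shares of TPM were compared by exact two-sided permutation.

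Genes named by rule were the 20 largest called differences each way (symbol, higher group mean of at least 5 TPM, libraries apart), interaction calls among that set, and up to 5 called members of each list with the smallest p. The rule also named all tested members of the folate, methionine, cobalamin, troponin, muscle actin, sarcomeric myosin, mesenchymal transcription factor, BMP, chemokine and endothelin lists. Others, and the genes drawn by library, were chosen after their values were seen. The members and lists were chosen with earlier results of these data known. Promoter windows came from RefSeq for build GRCr8, which is not the build of the deposited values, whose coordinates were not used. Some genes named by the rule are not reported here. Plots were drawn with matplotlib 3.10.9 under Python 3.11.15.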

Additional observations from a re-analysis of the deposited data

Results flagged for a closer look

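The folic acid difference was unlike without and with MMA, by the interaction test, for 14 of the 201 called genes among the 289 named by rule, beside 2.41% of all genes tested. Many were named for their FA against control difference, whose libraries enter this test too, so the share is a description. The interaction, (MMA+FA minus MMA) minus (FA minus control) on the log2 scale, was -0.35 for Rpl15l3 and -0.76 for Tk1, a ribosomal protein-like gene and thymidine kinase. It was -1.05 for Palmd, 0.82 for the skeletal actin gene Acta1 and 0.33 for vinculin, Vcl. For the BMP pseudoreceptor gene Bambi it was -0.43, and for the matricellular gene Ccn1 -0.37. Ednra, the endothelin receptor gene, had 0.44 and the NF-kB inhibitor gene Nfkbib 0.42. The replication factor gene Rfc2 had -0.47 and the tubulin gene Tubb3 -0.62. In the lysosome list it was 0.36 for Mcoln1, 0.53 for Npc1 and 0.36 for Gabarap. Rpl15l3 is near-identical to other copies of its gene, so reads may be split among them.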

How the results depend on the processing

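For FA against control, 1517 genes were called. Median-ratio scaling gave 709 higher and 476 lower, quantile normalization 683 higher and 584 lower, and no filter on low values 928 (253 higher, 675 lower). Array weights gave 5929 (1913 higher, 4016 lower) with a weight of 14 on FA replicate 1 and did not converge. Fitting only the 6 libraries compared gave 604 (195 higher, 409 lower). Leaving out 1 library gave 214 to 2571, with 70 to 861 higher and 144 to 1710 lower. For MMA+FA against MMA, scaling gave 784 higher and 759 lower, quantile normalization 746 lower, array weights 2917 (886 higher, 2031 lower), and leaving out 1 library 868 to 1696 (262 to 459 higher, 581 to 1237 lower). For the interaction, no filter gave 181 (93 lower), array weights 1810 (844 higher, 966 lower), and leaving out 1 library 85 to 496 (34 to 197 higher, 51 to 299 lower). The differences in share of TPM, leaving out 1 library, ranged over 1.19 to 1.45 percentage points for the top 100 genes and -0.505 to 0.327 for mitochondrially encoded genes. The cause of these shifts was not tested. Of 201 called genes named by rule, 40 lost the call under scaling, 29 under quantile normalization, 62 without a filter, 78 with the 2 groups alone, 34 without a mean-variance trend, 8 without mitochondrially encoded genes and 4 with a pseudocount of 0.1. Leaving out 1 library lost 9 (FA replicate 2) to 130 (control replicate 3), and none of the 201 changed direction in any setting run. Of the 88 named genes that were not called, 26 changed sign in at least 1 setting. Among those given in the text, Smad1 and Smad5 stood at 0.02 and 0.03 under scaling and at 0.01 and 0.02 under quantile normalization, and leaving out 1 library gave -0.13 to 0.01 for Fpgs, -0.04 to 0.01 for Smad5 and -0.17 to 0.01 for Il6. TPM holds no read totals, so counting error could not be set apart.

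With the replicate number as a block, 1300 genes were called in FA against control (421 higher, 879 lower), 1515 in MMA+FA against MMA (484 higher, 1031 lower) and 214 in the interaction (83 higher, 131 lower). Of the 201 named calls, 20 were lost with the block. The deviations of same-numbered FA and control libraries correlated at -0.0608, -0.124 and -0.1 across genes, so the numbers were not taken as pairs. Each FA library correlated least with the control library of its own number.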
